A study of Homo sapiens with 4 samples.

Results

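Guanylate-binding proteins (GBPs) are large GTPases of the dynamin superfamily that interferons, above all interferon gamma, induce in many cell types, where they assemble on the membranes of intracellular bacteria and parasites. Interferon gamma is the cytokine that NK cells themselves secrete. It binds the receptor chains IFNGR1 and IFNGR2, which act through the kinases JAK1 and JAK2 on factors that bind GAS elements in promoters, and IRF1 is a further activator of the same targets. The 9 genes described here were chosen by name as targets of this gamma-type response, out of 20323 genes in the deposited table. They are GBP1, GBP2, GBP3, GBP4 and GBP5, the chemokine gene CXCL10, the checkpoint ligand gene CD274, the class II transactivator gene CIITA, and IDO1, which encodes the enzyme that starts the breakdown of tryptophan to kynurenine.

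Poly(A)-selected RNA was measured in the human NK cell line NK-92, grown with serum and interleukin 2. All cells carried a lentiviral hairpin. The shscramble group (n = 2 libraries) carried a scrambled control hairpin and the shADAR1 group (n = 2 libraries) a hairpin against ADAR1, the enzyme that edits adenosine to inosine in double-stranded RNA, and the comparison asked how gene expression differed when ADAR1 was depleted. Per the series description the replicates of a group were independent biological replicates of this cell line, although shADAR1-1 and shADAR1-2 are also names of hairpins in the study, and the labels do not say whether the 2 shADAR1 libraries carried the same hairpin. The text of the study gives shADAR1-2 as the cells it sequenced, so the numbers in the labels were read as replicate numbers. The libraries held 39529705 and 39960491 estimated counts in shscramble replicates 1 and 2 and 37881704 and 38552577 in shADAR1 replicates 1 and 2. Across tested genes the log2 CPM of replicates correlated at r = 0.988 in shscramble and r = 0.986 in shADAR1, and that of libraries of different groups at r = 0.986 to 0.994, so replicates were no more alike than libraries of different groups. shADAR1 replicate 2 stood apart in antiviral genes. In libraries of whole cultures, fewer cells expressing a gene and less RNA per cell cannot be told apart.

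The target gene ADAR was at 655 and 682 CPM (counts scaled to a common depth by the TMM method) in shscramble replicates 1 and 2 and at 575 and 482 in shADAR1 replicates 1 and 2. Both shADAR1 libraries were thus below both shscramble libraries, with a log2 fold change of -0.34 (standard error 0.20, 95% interval -0.79 to 0.11) that did not pass the test (adjusted p = 1.00, edgeR) and was -0.22 without shADAR1 replicate 2. The difference in the targeted transcript had the direction of the labels and was modest. NK cell markers were high in all 4 libraries, with NKG7 at 1740 to 2080 FPKM (fragments scaled by transcript length and by depth) and NCAM1 at 154 to 202 FPKM. Markers of other cells were mixed. MS4A1, CLEC9A, CD8A and CD8B were listed at 0 in every library and CD14 and LYZ at 0 to 3 counts, whereas CD3E (396 to 554 FPKM), PDGFRB (51.4 to 68.1 FPKM), ITGAX (16.7 to 25.8 FPKM) and PAX5 (2.17 to 5.34 FPKM) were expressed. Of the T cell markers listed with CD3E, CD3D was at 10 to 24 counts and CD3G at 0 to 2. Among the packaging cell and stromal markers listed with PDGFRB, LIN28B was at 5.86 to 7.1 FPKM. The others were low, with COL1A1 at 2 to 25 counts, COL1A2 at 0 to 37, KRT8 at 0 to 11, KRT18 at 0 to 3 and EPCAM at 0 to 1.

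GBP1 to GBP7 lie side by side in GRCh38 at chr1:89006666-89386461 (GENCODE release 29), 6 of the 7 on the minus strand and GBP6 on the plus strand. GBP2 (chr1:89106132-89150456) and GBP7 (chr1:89131751-89176040) overlap on the same strand. CIITA lies at chr16:10866222-10943021, CD274 at chr9:5450503-5470566, both on the plus strand, and CXCL10 on the minus strand at chr4:76021117-76023497. Interferon-responsive promoters commonly carry an interferon-stimulated response element (ISRE), which IRF factors bind, or a GAS element, which is read in the response to interferon gamma. The RefSeq promoter table (GRCh38.p14) held 5 of the 9 genes. The 250 bases before each start were searched on both strands for an ISRE-type core, GAAANNGAA, and a GAS-type core, TTCNNNGAA, which can overlap. Of 35116 promoters, 6.88% held the first and 6.57% the second. Among the 5 genes, GBP1, CD274 and CXCL10 held the ISRE-type core, GBP3 and CD274 the GAS-type core, and GBP4 neither. The matches are shown because they are the letters through which this response is known to be read, with the core in capitals (on the opposite strand the core appears as its reverse complement) and each sequence written 5′ to 3′ on the strand of its gene.
GBP1, chr1:89065316-89065344, minus strand: acgaagtactTTCAGTTTCatattactct
GBP3, chr1:89022867-89022891, minus strand: actgagtcacTTCCTTGAAagaagt
CXCL10, chr4:76023700-76023728, minus strand: tcatgttttgGAAAGTGAAacctaattca
CD274 distal, chr9:5450328-5450356, plus strand: gacatgtTTCACTTTCTGTTTCatttcta
CD274 proximal, chr9:5450407-5450435, plus strand: ttccgccgatTTCACCGAAggtcaggaaa
The capitals of the distal CD274 stretch are 2 overlapping ISRE-type cores, and those of the proximal stretch a GAS-type core that ends 117 bases before the start. The GBP1 core lies 126 to 118 bases and the GBP3 core 15 to 7 bases before the RefSeq start. Both of these lie within exons of longer GBP1 and GBP3 transcripts in GENCODE, and the other stretches lie outside annotated exons of the same strand. A match describes letters only and shows no binding.

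The 9 genes covered a wide range of levels, and their order was nearly the same in every library. GBP5, a GBP linked to inflammasome assembly, was the highest of the 9 in all 4 libraries, at 52.3 and 64.8 FPKM in shscramble and 77.6 and 57.3 FPKM in shADAR1. GBP1 was at 43.2 and 41.6 FPKM in shscramble and 57.0 and 34.2 FPKM in shADAR1, and GBP2 at 30.0 and 42.8 FPKM in shscramble and 42.5 and 36.9 FPKM in shADAR1. GBP1 was above GBP2 in 2 of the 4 libraries, both of them replicates numbered 1, so these neighbours could not be ordered.

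GBP4 followed at 18.6 to 25.7 FPKM, below GBP2 without overlap of their ranges. CIITA, the coactivator that switches on MHC class II genes, was at 8.43 to 10.6 FPKM and GBP3 at 5.31 to 9.65 FPKM. CIITA was above GBP3 in all 4 libraries although their ranges overlapped. CD274 was far lower, at 0.257 to 0.448 FPKM, and CXCL10 and IDO1 were near 0, at 0.022 to 0.106 and 0 to 0.072 FPKM. By mean FPKM over the 4 libraries GBP5 ranked 1465 among 20323 genes, GBP3 7154 and CD274 10720.

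**Figure D1:**
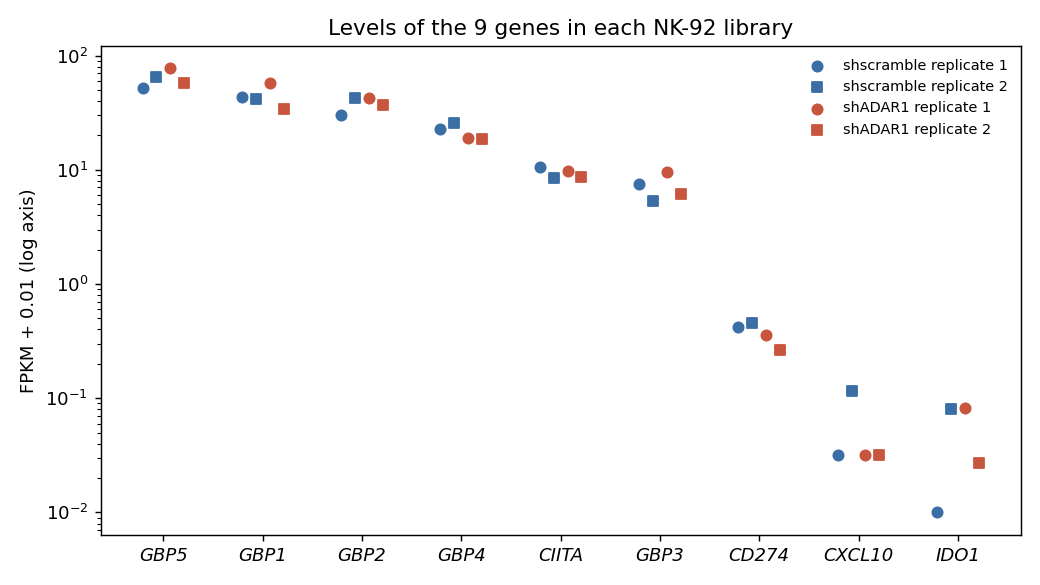
FPKM + 0.01 (log axis) of the 9 genes in each library, ordered by the mean over the 4 libraries; circles are replicates 1, squares replicates 2, blue is shscramble and red shADAR1. GBP5 is highest in every library, GBP1 and GBP2 trade places between libraries, and CXCL10 and IDO1 stay near 0.

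The last 2 family members, not among the 9 genes, were scarce. GBP6 was at 0.049 to 0.089 FPKM and GBP7 at 0, 2, 0 and 0 counts in shscramble replicates 1 and 2 and shADAR1 replicates 1 and 2. The summed FPKM of GBP1 to GBP5 was 156 and 180 in shscramble and 206 and 153 in shADAR1, and the groups overlapped. Within this sum GBP4 took 14.7% and 14.3% in shscramble and 9.28% and 12.1% in shADAR1, and GBP5 took 33.6% and 36.0% in shscramble and 37.7% and 37.4% in shADAR1. The groups did not overlap in these 2 shares, the first lower and the second higher in shADAR1, and they did in those of GBP1, GBP2 and GBP3. The shares are parts of one sum, so these 2 are not independent, and in its own level GBP5 overlapped between the groups. In levels, 12.6% of all tested genes were lower and 13.3% higher without overlap of the groups. Reads of near-identical relatives could have been divided between them in counting. Of the 50-base stretches in GBP1's protein-coding transcripts (GENCODE release 29), 13.3% also occur in transcripts of other genes, first among them GBP1P1 and GBP3. The share was 3.09% for GBP2 and 3.89% for GBP3, led in both by GBP1 and GBP1P1. It was 4.08% for GBP4, led by CASP10, and 0.643% for GBP5, led by NPC1, so for these it is mostly not a likeness to relatives. By this share GBP1 is the least certain of the 5. Of the other genes described here, CIITA had a share of 14.5%, led by AC133065.3, CHP1 and PADI4.

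For the comparison of shADAR1 with shscramble, 7 of the 9 genes passed the filter on low counts. CXCL10 (1 and 5 counts in shscramble, 1 and 1 in shADAR1) and IDO1 (0 and 5.18 estimated counts in shscramble, 5.05 and 1 in shADAR1) did not. A lower level or a small difference in them was not detectable at this depth, where 3 counts correspond to 0.0751 to 0.0792 CPM. None of the 7 was differentially expressed by edgeR's quasi-likelihood test (an adjusted p under 0.05 and at least a 1.5-fold difference), and neither was any of the 11810 tested genes (0%). Below, genes are said to reach the looser threshold where the p before adjustment was under 0.05 and the difference at least 1.5-fold. At an unadjusted p under 0.05, edgeR listed 293 genes and DESeq2 289, 0 of the 7 among them in either, and DESeq2 also called 0 genes after adjustment. Of the 7, 2 were lower in both shADAR1 libraries than in both shscramble libraries (GBP4 and CD274), against 12.6% of all tested genes, and 0 were higher in this sense, against 13.3% of all tested genes. The median log2 fold change was 0.07 over the 7 genes and 0.11 over the 5 GBPs, beside 0 over all tested genes. For every single gene below, the adjusted p from edgeR was 1.00, and the size of a difference is given with its 95% interval.

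GBP4 was at 139 and 161 CPM in shscramble and at 113 and 118 CPM in shADAR1. It was the GBP whose groups did not overlap, with the 2 shADAR1 libraries close together. The log2 fold change was -0.38 (standard error 0.19, 95% interval -0.81 to 0.05) and stayed between -0.48 and -0.27 when each library was left out in turn. CD274, which encodes PD-L1, the ligand of the inhibitory receptor PD-1, was at 1.48 and 1.65 CPM in shscramble and 1.22 and 0.964 CPM in shADAR1, from 36 to 65 counts per library. Its libraries likewise did not overlap, but the log2 fold change of -0.52 had an interval of -1.53 to 0.50.

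GBP1, which coats cytosolic bacteria and binds their lipopolysaccharide, was at 108 and 102 CPM in shscramble and at 138 and 83.6 CPM in shADAR1. The 2 shADAR1 libraries lay on either side of both shscramble libraries, and shADAR1 replicate 1 was 1.64 times replicate 2. The log2 fold change of 0.07 (standard error 0.25, 95% interval -0.48 to 0.62) became -0.33 without shADAR1 replicate 1 and 0.39 without shADAR1 replicate 2, so that it rested on which of these libraries was used. GBP3 showed a similar split, at 16.2 and 13.5 CPM in shscramble and 22.4 and 15.9 CPM in shADAR1. Its log2 fold change was 0.37 (standard error 0.24, 95% interval -0.17 to 0.90), and was 0.10 without shADAR1 replicate 1 and 0.59 without replicate 2, and shADAR1 replicate 1 alone stood above both shscramble libraries.

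GBP2, which together with GBP5 is known to inhibit the protease furin, was at 116 and 174 CPM in shscramble and 161 and 152 CPM in shADAR1. Here it was the shscramble libraries that lay apart, and both shADAR1 libraries lay between them. The log2 fold change was 0.11 (standard error 0.23, 95% interval -0.39 to 0.61) and was -0.15 without shscramble replicate 1. GBP5 was at 336 and 432 CPM in shscramble and 483 and 383 CPM in shADAR1, with a log2 fold change of 0.17 (standard error 0.22, 95% interval -0.32 to 0.66). CIITA varied least, at 49.6 and 44.9 CPM in shscramble and 49.6 and 48.6 CPM in shADAR1, with a log2 fold change of 0.06 (standard error 0.19, 95% interval -0.37 to 0.48). The intervals of the 5 GBPs and CIITA stayed inside a 2-fold difference in either direction, while that of CD274 did not, and no interval shows that the groups were equal.

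**Figure D2:**
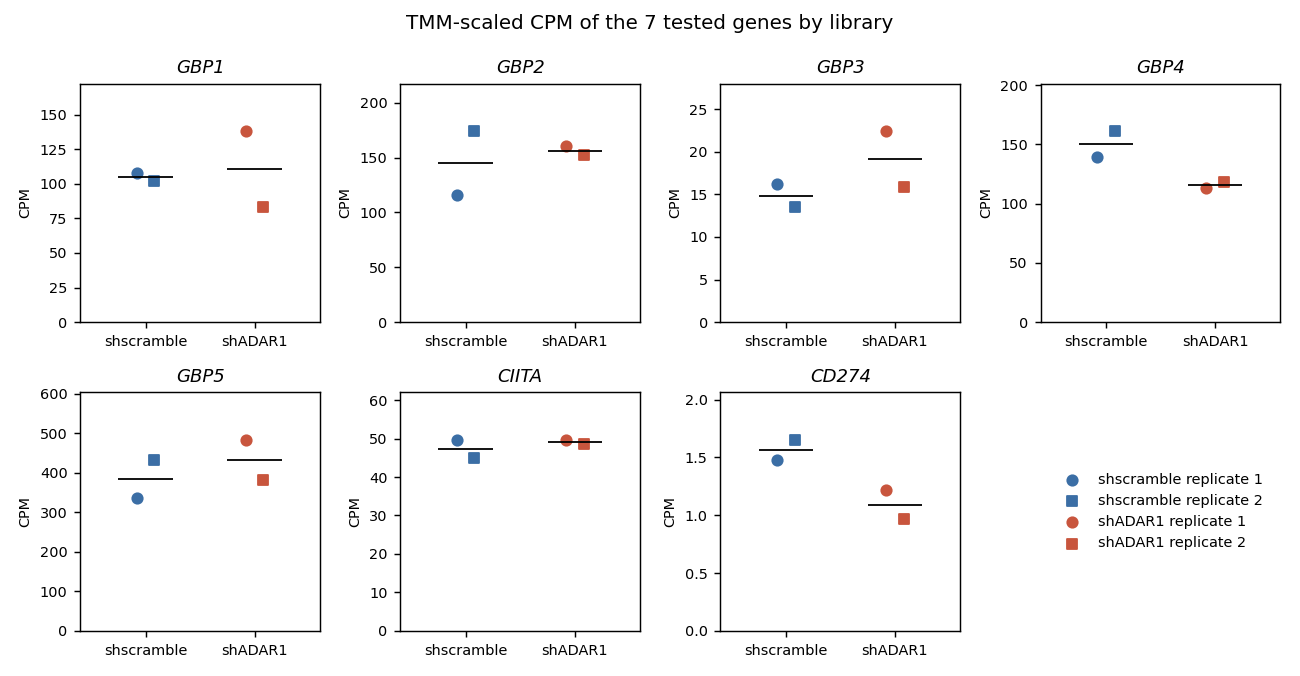
TMM-scaled CPM (axes from 0) of the 7 tested genes; each point is a library, circles replicates 1 and squares replicates 2, and the line is the group mean. GBP4 and CD274 are the genes whose shADAR1 points both lie below both shscramble points, and for GBP1 the shADAR1 points lie on either side of the shscramble points.

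The ligand of the pathway was lower in both shADAR1 libraries. IFNG, which encodes interferon gamma, was at 32.3 and 60.0 CPM in shscramble and 19.7 and 22.5 CPM in shADAR1. The groups did not overlap, and the log2 fold change was -1.13 (standard error 0.28, 95% interval -1.75 to -0.50), or -0.62 without shscramble replicate 2, the library in which it was highest. IFNGR1 was at 27.8 and 28.5 CPM in shscramble and 26.2 and 26.6 CPM in shADAR1. Its groups did not overlap either, at a log2 fold change of -0.09 (95% interval -0.53 to 0.34). IFNGR2, the second receptor chain, was listed at 0, 0, 2 and 0 counts in shscramble replicates 1 and 2 and shADAR1 replicates 1 and 2. Whether these low values come from the cells or from the annotation and counting, which are not given in the sources used here, was not tested. Of the genes that lead to IFNG expression in NK cells (the receptor subunits IL12RB1, IL12RB2, IL18R1 and IL18RAP and the transcription factors STAT4, TBX21 and EOMES), 0 of 7 reached the looser threshold, and their median log2 fold change was -0.10, or -0.12 to -0.06 when each library was left out.

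All 8 listed signal transducers were tested, 0 of them reached the looser threshold, and their median log2 fold change was -0.16, or -0.18 to -0.08 when each library was left out. IRF1, a transcription factor that activates many targets of the response, was at 185 and 185 CPM in shscramble and 178 and 133 CPM in shADAR1. IRF9, the DNA-binding subunit of the complex ISGF3, was at 47.6 and 41.7 CPM in shscramble and 38.1 and 13.3 CPM in shADAR1 (log2 fold change -0.80, 95% interval -1.65 to 0.05). In both genes the low value belonged to shADAR1 replicate 2. Without that library the log2 fold change was -0.23 for IRF9 and -0.06 for IRF1, and without shADAR1 replicate 1 it was -1.75 and -0.47. The kinase genes JAK1 and JAK2 had log2 fold changes of 0.07 and 0.13, STAT2 of -0.19, STAT3 of -0.14 and IRF2 of -0.25. With each library left out, JAK1 ran from -0.04 to 0.17, JAK2 from 0.002 to 0.26, STAT2 from -0.46 to 0.14 and IRF2 from -0.45 to -0.08, so JAK1 and STAT2 had no settled direction. IRF8, itself a gamma-type target, stood at 0.14 with both shADAR1 libraries above both shscramble libraries.

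Among 9 listed inhibitors of interferon signaling, not all of them particular to the gamma type, 7 were tested, and the median log2 fold change was -0.05. USP18, a protease that removes ISG15 and dampens type I interferon receptor signaling, was at 37.5 and 39.3 CPM in shscramble and 21.6 and 15.5 CPM in shADAR1 (log2 fold change -1.05, 95% interval -1.54 to -0.55). PTPN6, the phosphatase SHP-1, was in the other direction, at 16.2 and 26.2 CPM in shscramble and 31.3 and 35.5 CPM in shADAR1 (log2 fold change 0.66, 95% interval 0.10 to 1.22). These 2 inhibitors reached the looser threshold, as did 0.542% of all tested genes with lower and 1.26% with higher values. Without shscramble replicate 1 PTPN6 was at 0.35, under a 1.5-fold difference, and without shscramble replicate 2 at 1.04. The median over the inhibitors ran from -0.17 without shscramble replicate 2 to 0.14 without shscramble replicate 1. SOCS1 was at 90 and 25 counts in shscramble and 64 and 38 in shADAR1, so its replicates differed more than its groups.

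**Figure D3:**
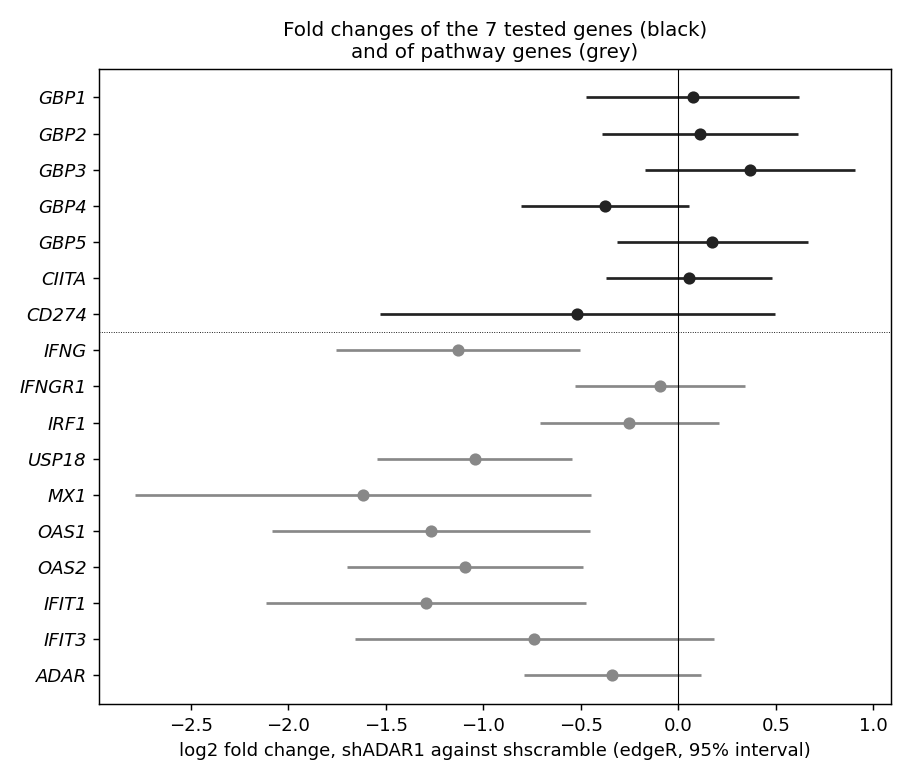
Log2 fold changes with 95% intervals (edgeR) of the 7 tested genes (black, above the dotted line) and of pathway genes and ADAR (grey). The black intervals all span 0, while those of IFNG, USP18, MX1, OAS1, OAS2 and IFIT1 lie below 0 before adjustment for 11810 genes.

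Other targets of the gamma-type response were described from a list of 39 genes, of which 32 were tested, and 27 of these had negative and 5 positive log2 fold changes, with a median of -0.21. In 15 of the 32, both shADAR1 libraries were below both shscramble libraries, and in 2 both were above. The same shares among all tested genes were 12.6% and 13.3%. No gene of the list passed the adjusted test, and 2 reached the looser threshold, both lower, beside 0.542% of all tested genes. They were WARS1, a tryptophanyl-tRNA synthetase, at 429 and 301 CPM in shscramble and 198 and 212 CPM in shADAR1 (log2 fold change -0.83, 95% interval -1.32 to -0.34), and EPSTI1, at 27.2 and 28.5 CPM in shscramble and 17.8 and 7.28 CPM in shADAR1 (log2 fold change -1.15, 95% interval -1.92 to -0.38). EPSTI1 was at -0.65 without shADAR1 replicate 2 and -1.93 without replicate 1, and WARS1 at -0.55, under a 1.5-fold difference, without shscramble replicate 1. The list is not of one kind by library. WARS1 was as low in shADAR1 replicate 1 as in replicate 2, whereas EPSTI1 and XAF1 were lowest in shADAR1 replicate 2. The median over the 32 genes was between -0.265 and -0.212 when each library was left out in turn. NLRC5, the class I counterpart of CIITA, had a log2 fold change of -0.002. CXCL9, SERPING1 and UBD were listed at 0 in every library, as CXCL10 nearly was.

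**Figure D4:**
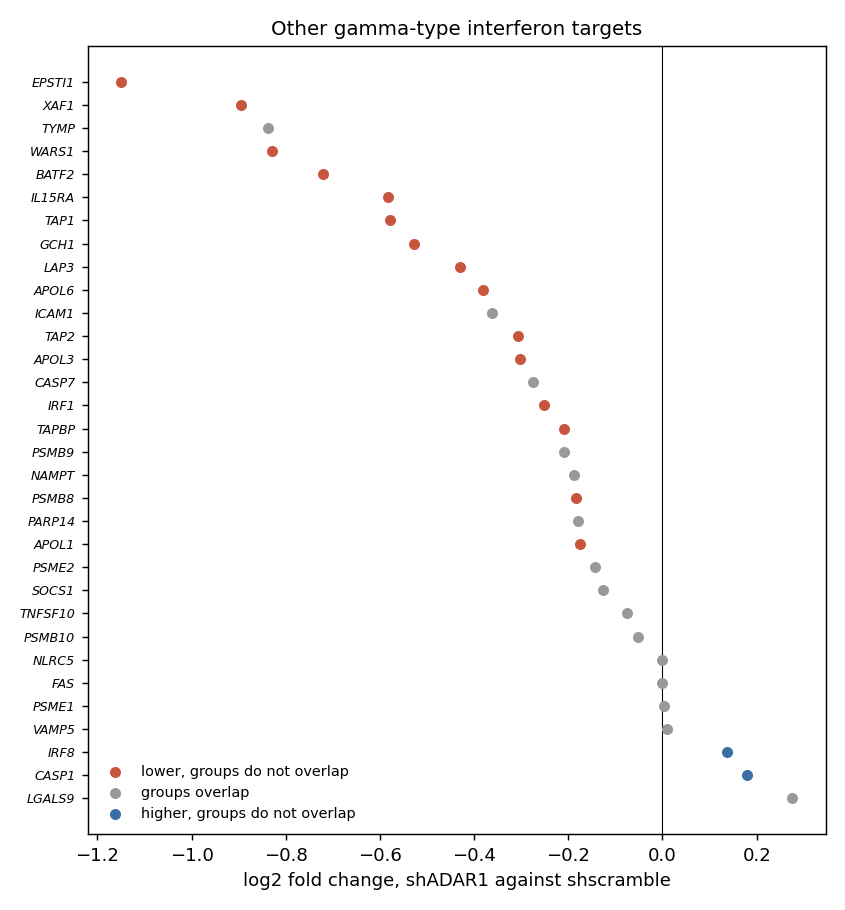
Log2 fold changes of the 32 tested genes of the list of other gamma-type interferon targets, ordered by value; red and blue points are genes whose 2 shADAR1 libraries both lay below (15 genes) or above (2 genes) both shscramble libraries, and grey points the remainder. Most points lie left of 0, from EPSTI1 at -1.15 to LGALS9 at 0.28.

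Each of the genes other than the GBPs was also set beside its partners. CIITA acts on MHC class II promoters through the RFX, NFY and CREB1 proteins, and all 19 listed class II and promoter-complex genes were tested. Of these, 7 had negative and 12 positive log2 fold changes, the median was 0.06, and 0 reached the looser threshold. Without shADAR1 replicate 2, 13 of the 19 were negative and the median was -0.10, so neither direction held. Levels within the group were uneven in every library. CD74, the invariant chain, was at 161 to 185 FPKM and HLA-DRB5 at 21.2 to 28.1 FPKM, but HLA-DRA, the partner chain of all DR beta chains, was at 0.304 to 0.714 FPKM. HLA genes are variable and alike in sequence, so their division of reads is uncertain.

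Among the partners of PD-L1, CMTM6, which protects it from degradation, was well above CD274 at 36.0 to 43.5 FPKM. Its relative CMTM4 was below CD274 in each library, at 0.102 to 0.363 FPKM. On 20 to 61 counts it was at 1.53 and 1.37 CPM in shscramble and 0.941 and 0.536 CPM in shADAR1, without overlap of the groups (log2 fold change -0.97, 95% interval -2.09 to 0.15). The CMTM4 value was -0.63 without shADAR1 replicate 2 and -1.43 without shADAR1 replicate 1. PDCD1LG2, the neighbouring gene for PD-L2, was listed at 0 in all libraries, and PDCD1, the receptor PD-1, at 0 apart from 4 counts in shADAR1 replicate 1. Of 9 listed partners and neighbours 7 were tested and 0 reached the looser threshold.

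CXCR3, the receptor of CXCL10, was expressed while its ligands were nearly not. It was at 56.2 and 67.6 CPM in shscramble and at 127 and 57.9 CPM in shADAR1, so shADAR1 replicate 1 alone was high, without which the log2 fold change was -0.10, and the groups overlapped (log2 fold change 0.58, 95% interval -0.13 to 1.29). CXCL11, the third ligand, had 6 counts in that library and 0 in the others. DPP4, a protease that trims these chemokines, was at 56.9 to 66.1 FPKM. Of the kynurenine pathway of IDO1, AFMID, the formamidase of its second step, was at 30.5 to 36.2 FPKM, KYAT1 at 11.9 to 14.6 FPKM, QPRT at 7.17 to 11.7 FPKM and KYNU at 0.445 to 0.873 FPKM. IDO2 and TDO2 were at 0 to 4 counts, HAAO and AADAT at 0, and KMO at 3.97 and 5.19 counts in shscramble and 0 in both shADAR1 libraries. KYAT3, a kynurenine aminotransferase gene next to the GBP cluster, was at 28.1 and 28.6 CPM in shscramble and 38.2 and 32.3 CPM in shADAR1 (log2 fold change 0.31, 95% interval -0.13 to 0.76). The KYAT3 value was 0.19 without shADAR1 replicate 1 and 0.43 without shADAR1 replicate 2. The 8 neighbours of the cluster had a median log2 fold change of 0.04, which ran from -0.05 to 0.16 when each library was left out, and 0 of them reached the looser threshold.

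GBPs are known to help caspases and inflammasomes sense bacteria in the cytosol, so those genes were listed too. CASP1 was at 45.8 to 57.2 FPKM and CASP4, the caspase that binds lipopolysaccharide, at 77.3 to 94.1 FPKM. GSDMD, which forms the pores of pyroptosis, was at 16.5 to 25.3 FPKM and the DNA sensor AIM2 at 12.2 to 14.3 FPKM. NLRP3 was at 0 to 4 counts, PYCARD, the adaptor ASC, at 2 to 16 counts, IL18 at 0 and IL1B at 0 to 3 counts. CASP5, the other caspase known to bind lipopolysaccharide, was at 0 to 2 counts. In this cell line the GBP genes were thus accompanied by transcripts of CASP1, CASP4, GSDMD and AIM2 but hardly by those of CASP5, NLRP3, the adaptor or the cytokines. Of the 6 tested genes of the list, 0 reached the looser threshold.

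The 9 genes were next set beside other interferon-induced families, whose products act against viruses. In the OAS family the median log2 fold change was -0.99 (4 of 4 genes tested, 4 lower), and in the IFIT and IFITM families -0.49 (7 of 7 tested, 6 lower), against 0.07 over the 7 tested genes here. The OAS median rested in part on OAS3, at 12 and 9 counts in shscramble and 11 and 0 in shADAR1. Without shADAR1 replicate 2, 2 of the 4 OAS genes and 5 of the 7 IFIT and IFITM genes were lower. OAS1, a sensor of double-stranded RNA, was at 85.6 and 91.4 CPM in shscramble and 53.5 and 19.9 CPM in shADAR1. IFIT1, which binds foreign RNA ends, was at 30.4 and 31.9 CPM in shscramble and 18.5 and 6.91 CPM in shADAR1. MX1, a dynamin-like GTPase and distant relative of the GBPs, was at 565 and 519 CPM in shscramble and 293 and 60.8 CPM in shADAR1. The log2 fold changes of OAS1, IFIT1 and MX1 were -1.27, -1.30 and -1.62, and without shADAR1 replicate 2 they were -0.73, -0.76 and -0.89. Without shADAR1 replicate 1 they were -2.15, -2.17 and -3.16. MX2 was at 2.70 and 3.05 CPM in shscramble and 1.37 and 0.0536 CPM in shADAR1 (log2 fold change -2.0, 95% interval -3.90 to -0.10, or -1.07 without shADAR1 replicate 2). Without shADAR1 replicate 1 the MX2 value was -5.665, which rested on 2 counts in shADAR1 replicate 2. In each of these 4 genes both shADAR1 libraries were below both shscramble libraries and replicate 2 was the lower. All 4 reached the looser threshold, as did OAS2, and reaching it was a rule by which genes were named. With DESeq2 in place of edgeR, MX1 and MX2 did not reach it. By list, the genes that reached it in edgeR with lower values were 2 of 4 OAS genes, 1 of 7 IFIT and IFITM genes and 2 of 8 genes of a list named GBP relatives. The share among all tested genes was 0.542%. The last list is named for short and held ATL1, ATL2, ATL3, MX1, MX2, IRGM, IRGQ and RNF213, not all of 1 family. Over the lists, the groups did not overlap, with lower values in shADAR1, in 2 of 4 OAS genes, 3 of 7 IFIT and IFITM genes and 4 of the 8 listed GBP relatives, against 12.6% of all tested genes. Of these 8 genes 7 had negative log2 fold changes, with a median of -0.20 that ran from -0.44 to -0.07 when each library was left out. Those of IRGQ (-0.036) and RNF213 (-0.023) were near 0, and IRGM and ATL1 rested on few counts. Whether the GBP values differ from those of these families was not tested, since all were measured in the same 4 libraries.

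The 2 shADAR1 libraries differed from each other in these families more than in the 7 tested genes. The ratio of shADAR1 replicate 1 to replicate 2 was 4.79 for MX1, 2.65 for OAS1, 2.56 for IFIT1 and 2.79 for IRF9. For the 7 tested genes it ran from 0.961 for GBP4 to 1.64 for GBP1. The median size of the log2 ratio was 1.15 over the IFIT and IFITM genes, 0.895 over the OAS family, 0.23 over the 7 genes and 0.25 over all tested genes. With its sign, the median log2 ratio was 0.23 over the 7 genes, 6 of them higher in replicate 1, as the OAS and IFIT genes were, and 0.005 over all tested genes. ADAR was also lower in shADAR1 replicate 2 than in replicate 1, and the part of that in these differences was not tested. Without shADAR1 replicate 2 the medians were -0.32 in the OAS family, -0.12 in the IFIT and IFITM families, and 0.15 over the 7 genes. Without shADAR1 replicate 1 they were -1.88, -1.30 and -0.002.

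**Figure D5:**
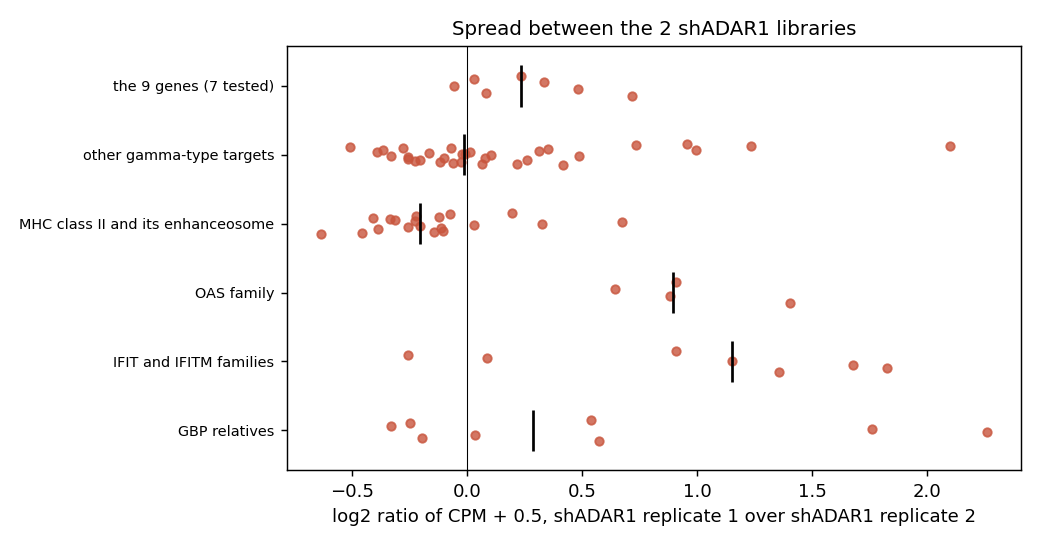
Log2 ratio of CPM + 0.5 between shADAR1 replicates 1 and 2 for each tested gene (points) of 6 lists, with the list's median as a bar. The 7 genes lie between -0.06 and 0.72, while most OAS, IFIT and MX genes lie to the right, up to 2.26 for MX1.

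By root mean square distance of centred log2 CPM over the 4 libraries, the genes outside the lists most like the mean profile of the 5 GBPs included KLHL2 (0.015), THPO (0.016), PDHX (0.019) and TLK1 (0.019). The profile was flat, with the libraries between -0.12 and 0.19 of the mean on the log2 scale, and 751 of 8491 genes with a mean of at least 10 CPM lay within 0.1 of it, so likeness over 4 libraries selects little. The single GBPs did not share the profile closely. GBP4 was highest in shscramble replicate 2 and lowest in shADAR1 replicate 1, and GBP1, GBP3 and GBP5 were highest in shADAR1 replicate 1. That library was also the highest in the summed B cell markers, at 24.6 and 22.1 CPM in shscramble and 46.2 and 20.1 CPM in shADAR1. Nearly all of this sum was PAX5, a transcription factor, with MS4A1 at 0, and 2 of the 4 markers passed the filter on low counts. Its part in the GBP values was not tested.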

How the data were processed

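NK-92 RNA was sequenced on an Illumina NovaSeq from unstranded libraries. The authors deposited estimated counts, which need not be whole, and FPKM values for 20323 genes in 4 libraries. The submitters' processing notes name fastp 0.18.0. The aligner, counting program, genome build and annotation are not given in the sources used here.

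After rounding, counts below the filterByExpr threshold (minimum count 10) were removed, and TMM scaling and the quasi-likelihood test of edgeR 4.0.16 were run in R 4.3.3 with Benjamini-Hochberg adjustment over 11810 genes. The standard error is the log2 fold change divided by the square root of F. FPKM served to compare levels between genes and to sum the GBPs, and CPM to compare a gene between libraries. An exact permutation test of 2 against 2 libraries cannot go below p = 0.333, so none was run. DESeq2 1.42.0, limma 3.58.1 on log2(FPKM + 0.1) and log2(FPKM + 1), other scalings and filters, the replicate block and leaving out each library were alternatives. The procedure was tested on simulated counts.

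The 9 genes and all lists were chosen with earlier results of these data known. Pathway genes were named singly when ligand, receptor, kinase, STAT, IRF, partner or neighbour, or when the p before adjustment was under 0.05 and the difference at least 1.5-fold. XAF1, NLRC5, SOCS1 and LGALS9, genes listed at 0 and marker genes were named outside this rule, after their values were seen. Some genes of the lists are not reported here and were left out of the counts and medians of the lists.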

Additional observations from a re-analysis of the deposited data

How the results depend on the processing

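Each group held 2 libraries, and counting error was not separated from the spread between libraries. Of the 9 genes, CD274, CXCL10 and IDO1 rested on few counts, as did OAS3 in every library and MX2, CMTM4 and SOCS1 in some libraries. None of the 9 genes was called under any alternative, including the reported fit without adjustment of p, and the lowest adjusted p of a tested gene of the 9 was 0.807. Over all tested genes the count of calls was 0 in the reported fit, 213 at an unadjusted p, 13 with the replicate block, and 1 to 47 when each library was left out, where the lone library of a group is assumed to vary like the other group. The deviations of same-numbered libraries correlated at r = 0.358, with 2 pairs and no label stating a pairing. With the replicate block 1 of the 9 genes, GBP4, passed 0.05 before adjustment (adjusted p = 0.807, edgeR), at less than a 1.5-fold difference. Of the 13 genes of the replicate block, 0 were among the 9 genes, and 6 were pathway genes named above (IFNG, USP18, MX1, OAS1, OAS2 and IFIT1). The replicate block medians were 0.06 over the 7 genes and 0.14 over the 5 GBPs.

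Of 91 recomputed log2 fold changes, 6 changed sign. CIITA was at -0.029 with limma on log2(FPKM + 0.1) and -0.027 on log2(FPKM + 1). With each library left out, CIITA ranged from -0.02 to 0.126, GBP1 from -0.33 to 0.386, GBP2 from -0.152 to 0.426, GBP3 from 0.099 to 0.591 and GBP5 from -0.002 to 0.363, the lowest without shscramble replicate 2 for CIITA, without shADAR1 replicate 1 for GBP1, GBP3 and GBP5, and without shscramble replicate 1 for GBP2. The median over the 5 GBPs ranged from -0.002 to 0.33 and the genes whose groups did not overlap from 3 to 5 when each library was left out, where a group of a single library overlaps less readily. The cause of the other changes was not tested. The legacy quasi-likelihood method is the default of the installed edgeR and gives the reported fit, so the method of edgeR 4 was added after seeing the data and called 0 genes.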
